A study of Mus musculus with 4 samples.

Results

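The genes described here encode subunits of the respiratory chain and ATP synthase, the oxidative phosphorylation system of mitochondria. They were chosen by symbol alone: names of the Nduf, Sdh, Uqcr, Cox and Atp5 families for the nuclear genome, and the protein-coding genes of mitochondrial DNA for the mitochondrial genome. The rule found 91 of the 15835 genes in the table, 78 nuclear and 13 mitochondrial. Of the nuclear genes, 36 belong by symbol to complex I, 4 to complex II, 8 to complex III, 13 to complex IV and 17 to complex V. Of the mitochondrial genes, 7 encode subunits of complex I, 1 of complex III, 3 of complex IV and 2 of complex V. Atp5s and Atp5sl match the letters of the rule without encoding core ATP synthase subunits, and Ndufa4, counted here under complex I by its symbol, is known as a subunit of complex IV.

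RNA came from ILC2 (group 2 innate lymphoid cells, which live in tissues and are known for type 2 cytokines) of the islets of Langerhans in the pancreas. Both groups were mice of genotype C57BL/6j, either fed (4 libraries, numbered 1, 3, 4 and 5) or fasted (4 libraries with the same numbers). The labels give neither the age and sex of the mice nor the length of the fast, and they do not say whether the libraries came from separate mice. P-values therefore reflect how far these libraries vary, and that variation may be technical. Libraries were prepared with CEL-seq2, which counts the 3' ends of polyadenylated RNA.

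Complexes I to IV pass electrons from NADH and succinate to oxygen, all but complex II pumping protons across the inner mitochondrial membrane, and complex V uses the proton gradient to make ATP. Complexes I, III, IV and V are built from subunits of both genomes, so a cell must supply them from nuclear messages translated in the cytosol and from mitochondrial messages translated on mitochondrial ribosomes. Complex II is encoded wholly in the nucleus and also works in the citric acid cycle. Mitochondrial DNA is transcribed as long polycistronic RNAs that are cut into single messages, most of them polyadenylated. Of the protein-coding genes, mtNd6 alone lies on the opposite strand.

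Library totals ran from 1797504 counts in fed 1 to 25252366 in fed 4. Of the 91 genes 83 passed the filter on low counts, 70 nuclear and all 13 mitochondrial. All 12 ILC2 markers examined were in the table and 11 had counts in every library. The exception, Rora, was at or under 1.78 CPM in every library. The 12 together held 0.110% to 0.403% of all counts in the fed and 0.141% to 0.598% in the fasted libraries, with the lowest share in fed 4. Marker genes of pancreatic acinar cells, the enzyme-secreting cells around the islets, were also abundant: 19 of the 20 listed were in the table and had counts in every library. Their summed share was 28.6% to 51.2% of all counts in the fed libraries and 47.9% and 50.4% in fasted 4 and 5, but 2.24% and 2.53% in fasted 1 and 3. Bulk libraries of this kind cannot tell fewer cells of a type from less RNA per cell. Marker lists of islet endocrine, B, T, myeloid, red, and ductal, stromal and endothelial cells each held at most 0.0599% of the counts of any library.

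Mitochondrial messages lie so close on their genome that some share bases, which bears on how far counts of neighbours can be told apart. The stretches below show, on the plus strand of mitochondrial DNA in GRCm38, the 4 places where annotated genes overlap (GENCODE vM21), with the shared bases in capitals and neighbouring bases in lower case. The first, at chrM:7915-7981, holds 43 bases common to both ATP synthase messages. The others share 1, 7 and 14 bases, at chrM:8595-8619, chrM:10155-10185 and chrM:13540-13577, and the last joins genes on opposite strands.
mtAtp8 and mtAtp6: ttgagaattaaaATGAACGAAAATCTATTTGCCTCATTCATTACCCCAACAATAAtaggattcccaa
mtAtp6 and mtCo3: tgataatacataAtgacccaccaaa
mtNd4l and mtNd4: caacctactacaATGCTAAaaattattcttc
mtNd5 and mtNd6: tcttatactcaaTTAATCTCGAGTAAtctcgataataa
Reads of mtAtp8 and mtAtp6, and of mtNd4l and mtNd4, come largely from shared messages and their split between symbols is uncertain. Whether the counting used strand is not stated in the sources used, so reads of mtNd6 and of the end of mtNd5 may not have been told apart.

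No gene of either genome passed the test of fasted against fed libraries (edgeR's quasi-likelihood test, Benjamini-Hochberg adjusted p under 0.05 over all genes tested). Of the 83 tested members 0 were called, and of all 7700 genes tested 0 were called, a share of 0.0%. DESeq2, run as an alternative, called 17 genes and again 0 members. At an unadjusted p under 0.05, edgeR had 2 members lower in the fasted libraries, mtNd6 and Atp5j, where 1.62% of all genes tested were lower, and 0 members higher, where 2.77% of all genes were higher. The same 2 genes had all fasted libraries below all fed libraries, as did 1.31% of all genes, and 0 members had all fasted libraries above, as did 2.21%.

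Fitted differences of the mitochondrial genes were all on 1 side. The log2 fold change, given as fasted minus fed throughout, was negative for 13 of 13 mitochondrial genes, with a median of -0.75 and a range of -1.70 to -0.48. Of the nuclear genes 50 of 70 were negative, with a median of -0.13 and a range of -0.55 to 0.43. Over all genes tested, 50.2% were negative and the median was -0.0017. The median standard error was 0.48 for the mitochondrial genes and 0.26 for the nuclear ones, and 69 of the 70 nuclear genes lay within 0.5 of no difference on the log2 scale. Mitochondrial messages share precursor RNA, so the 13 values are not independent observations.

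**Figure D1:**
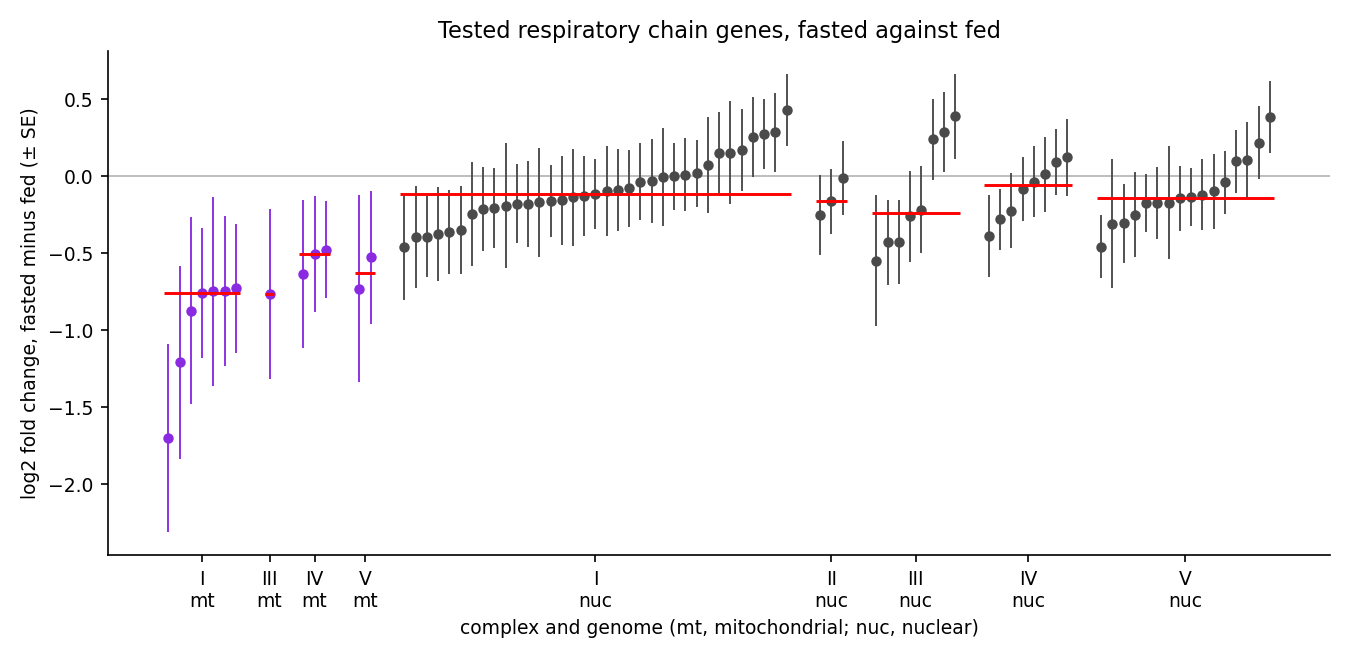
Log2 fold change (fasted minus fed, vertical axis) of the 83 tested genes, ordered by size within each complex and genome on the horizontal axis; purple points are mitochondrial, grey points nuclear, bars are ± 1 SE and red lines are medians. The 13 mitochondrial values lie between -1.70 and -0.48, while the nuclear values lie on both sides of 0 in every complex except II.

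Levels of the mitochondrial messages differed more within the fed group than between the groups. Their summed level, in CPM (counts relative to library sizes scaled by TMM factors), was 41114, 15072, 51004 and 13943 in fed 1, 3, 4 and 5. In fasted 1, 3, 4 and 5 it was 12011, 14826, 28252 and 20543. On this scale fed 1 and fed 4 stood above every fasted library, while fed 3 and fed 5 lay within the range of the fasted libraries. The group means were 30283 ± 18664 CPM fed and 18908 ± 7170 CPM fasted (SD, n = 4). As a share of all counts the mitochondrial genes held 5.13%, 1.90%, 2.73% and 0.971% in fed 1, 3, 4 and 5. In fasted 1, 3, 4 and 5 they held 2.51%, 2.98%, 1.95% and 1.16%. By share, fed 4 thus lay below fasted 3, and the place of fed 4 above every fasted library rests on the TMM scaling.

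The summed level of the 78 nuclear genes, in the same CPM, was nearly even. It was 6624, 5957, 7391 and 8803 CPM in fed 1, 3, 4 and 5, and 6428, 6978, 5750.0 and 8389 CPM in the fasted libraries of the same numbers. The 2 groups overlapped over almost their whole range, with means of 7193 ± 1222 CPM fed and 6886 ± 1121 CPM fasted (SD, n = 4). The highest nuclear sum was 1.53 times the lowest, against 4.25 times for the mitochondrial sum. This evenness rests on the TMM scaling. As a share of all counts the nuclear genes held 0.826%, 0.752%, 0.396% and 0.613% in fed 1, 3, 4 and 5 and 1.35%, 1.404%, 0.398% and 0.472% in the fasted libraries, a 3.54-fold range (mitochondrial genes 5.28-fold). On that scale the nuclear mean was higher in the fasted group, at 0.905 ± 0.544% against 0.647 ± 0.189% (SD, n = 4), with the 2 acinar-poor libraries the highest.

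Within a library, the ratio of mitochondrial to nuclear counts needs no scaling of library sizes. It was 6.21, 2.53, 6.90 and 1.58 in fed 1, 3, 4 and 5 and 1.87, 2.12, 4.91 and 2.45 in fasted 1, 3, 4 and 5. The fasted library was the lower of its number in 3 of 4 cases, the exception being number 5, and the groups overlapped. On the log2 scale the mean was 1.86 ± 1.03 fed and 1.39 ± 0.62 fasted (SD, n = 4), a difference of -0.46 that is smaller than either SD. That difference was -0.20 without fed 1, -0.15 without fed 4, -0.86 without fed 5, -0.30 without fasted 1 and -0.76 without fasted 4. Without the 2 acinar-poor libraries, fasted 1 and 3, it was -0.06. The part of acinar RNA in this ratio was not tested.

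**Figure D2:**
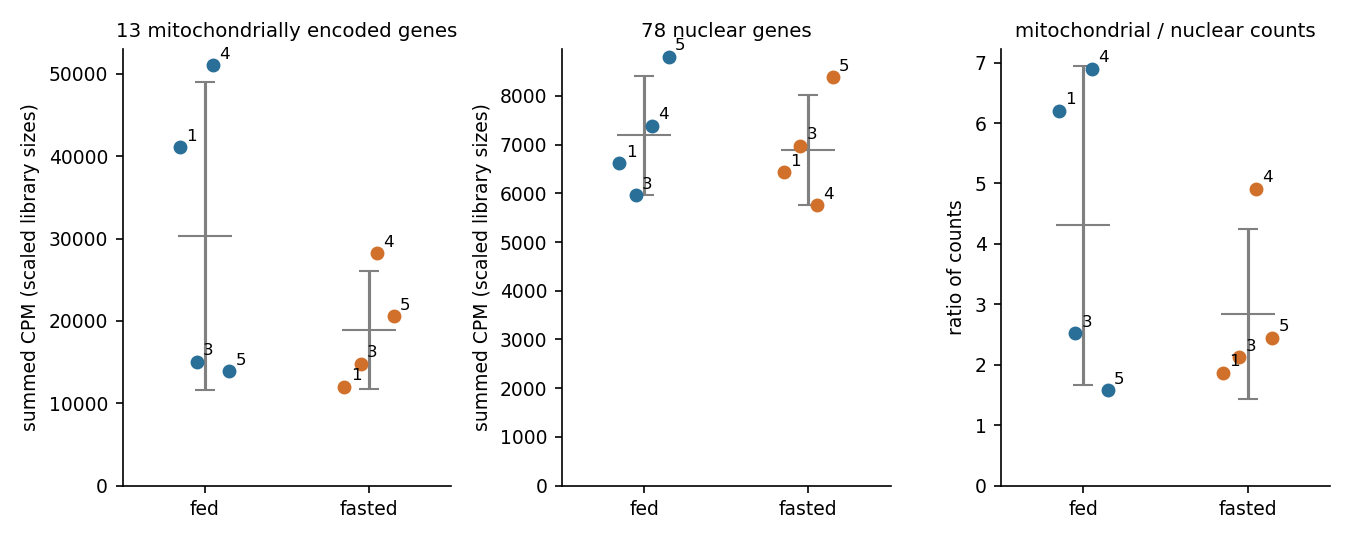
Summed CPM of the 13 mitochondrial genes, summed CPM of the 78 nuclear genes, and the ratio of their counts (vertical axes, from 0) in the fed and fasted libraries; each point is a library labelled with its number, and grey bars are the mean ± SD of 4 libraries. Fed 1 and fed 4 stand apart in the mitochondrial sum at 41114 and 51004 CPM, whereas all 8 nuclear sums lie between 5750.0 and 8803 CPM.

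The 2 high fed libraries were high for nearly every mitochondrial gene. Of the 8 libraries, fed 1 had the lowest and fed 4 the highest total counts, and the part of depth was not tested. In CPM, fed 1 and fed 4 both exceeded every other library, fed or fasted, for 12 of the 13. The exception was mtNd6. Among the 70 tested nuclear genes, fed 1 and fed 4 both exceeded fed 3 and fed 5 for 4. The highest of the 8 libraries was fed 4 for 7 mitochondrial genes and fed 1 for 6. For nuclear genes it was fed 5 most often (32 genes), then fasted 5 (17) and fed 4 (16).

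Read by library number, the mitochondrial genes did not move one way. All 13 were lower in fasted 1 than in fed 1 and in fasted 4 than in fed 4, 7 of 13 in number 3, and 1 of 13 in number 5. For the 70 nuclear genes the fasted library was the lower in 47, 25, 62 and 46 cases for numbers 1, 3, 4 and 5. The mitochondrial median of -0.75 became -0.48 without fed 1, -0.33 without fed 4 and -0.31 without fasted 1 and 3. The nuclear median of -0.13 became -0.0038 without fed 5, -0.07 without fasted 1, -0.08 without fasted 4, -0.20 without fasted 5 and -0.06 without fasted 1 and 3, in which acinar markers held 2.24% and 2.53% of counts. With the log2 level of summed acinar markers as a covariate, chosen after the data were seen, the medians were -0.46 and -0.04.

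**Figure D3:**
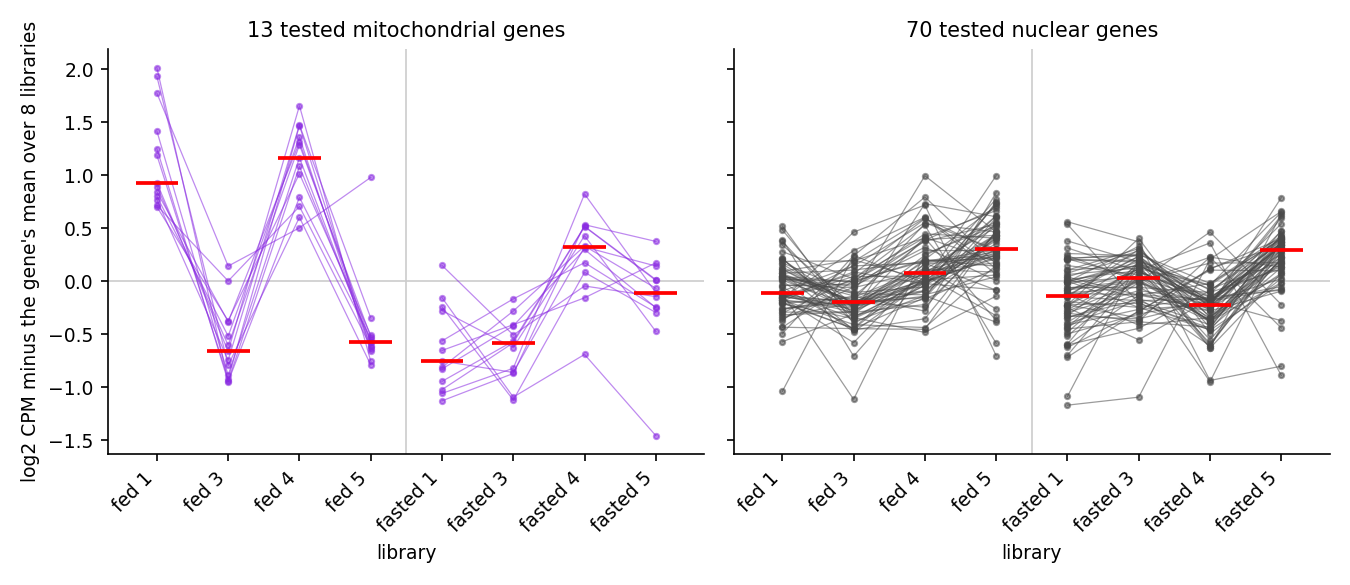
Log2 CPM of each tested gene minus its own mean over the 8 libraries (vertical axis) by library (horizontal axis), with the 13 mitochondrial genes on the left and the 70 nuclear genes on the right; thin lines join the libraries of a group for 1 gene and red bars are medians. Fed 1 and fed 4 are raised across the mitochondrial genes, and the nuclear genes stay closer to 0.

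The spread within groups was accordingly wider for the mitochondrial genes. The SD of log2 CPM within groups had a median of 0.84 over the 13 mitochondrial genes and 0.34 over the 70 nuclear genes. Over all genes tested it was 0.59, and over the 806 other genes at or above the nuclear genes' median level it was 0.37. For the mitochondrial genes the median SD was 1.02 in the fed and 0.48 in the fasted libraries, and for the nuclear genes 0.32 and 0.31.

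Complex I, NADH dehydrogenase, takes 7 subunits from mitochondrial DNA. Among them mtNd1 stood at 4916, 2099, 6807 and 1842 CPM in fed 1, 3, 4 and 5 and at 1542, 2044, 3369 and 2302 CPM in the fasted libraries of the same numbers. The values in fed 1 and 4 were above all fasted values and the groups overlapped (-0.76 ± 0.42, log2 fold change ± SE). The gene with the most counts, mtNd4, stood at 6423, 2135, 10638 and 2001 CPM fed and 1619, 1909, 5972 and 3133 CPM fasted, with the same pattern (-0.75 ± 0.61). Without fed 4 the values were -0.35 for mtNd1 and -0.15 for mtNd4, and without fasted 4 that for mtNd4 was -1.27.

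The remaining members of this complex differed in which library stood out. The log2 fold changes of mtNd2 and mtNd3 were -0.75 ± 0.48 and -0.73 ± 0.42, and -0.24 and -0.33 without fed 4. mtNd4l had -0.87 ± 0.60, but -0.0092 without fed 1, where its level was 728 CPM against at most 289.7 CPM elsewhere. mtNd5 stood at 2061, 264, 1079 and 342 CPM in fed 1, 3, 4 and 5 and at 431, 234, 539.8 and 415 CPM in the fasted libraries. Fed 1 stood far above the next library, and the log2 fold change of -1.21 ± 0.63 became -0.47 without it.

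mtNd6, the one subunit message made from the opposite strand, had few counts. How well a method that counts polyadenylated RNA captures this message was not tested. mtNd6 had 16, 17, 40 and 12 counts in fed 1, 3, 4 and 5 and 8, 5, 7 and 4 counts in fasted 1, 3, 4 and 5. As CPM these were 7.14, 2.30, 2.96 and 4.11 against 1.87, 0.976, 1.29 and 0.758. All fasted libraries lay below all fed libraries, with a log2 fold change of -1.70 ± 0.61 (edgeR, unadjusted p = 0.0175, Benjamini-Hochberg adjusted p = 1.00). Leaving out single libraries gave -1.97 to -1.33, and limma-voom with quality weights gave -1.35 (unadjusted p = 0.101). As a share of mitochondrial counts its groups overlapped: 0.0174%, 0.0153%, 0.0058% and 0.0295% fed against 0.0156%, 0.0066%, 0.0046% and 0.0037% fasted.

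Complex III takes a single mitochondrial subunit, cytochrome b. mtCytb stood at 4306, 871, 3614 and 1056 CPM in fed 1, 3, 4 and 5 and at 792, 1076, 2301 and 1620.2 CPM fasted. Again fed 1 and 4 were the highest, and the remaining fed libraries lay among the fasted ones (-0.77 ± 0.55). Without fed 1 the value was -0.35.

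Complex IV, cytochrome c oxidase, has its catalytic core in the mitochondrial genome. The fitted differences of these 3 genes were smaller than those of complex I, but gene by gene this order did not hold with libraries left out. Without fed 4, for example, mtNd4 of complex I was at -0.15 and mtCo1 at -0.31. The mitochondrial medians kept their order there, at -0.35 for complex I and -0.20 for complex IV. Without fasted 1 and 3 they were -0.47 and -0.20. mtCo1, which holds the site of oxygen reduction, stood at 5346, 3259, 5309 and 2122 CPM in fed 1, 3, 4 and 5 and at 2202, 2899, 3675 and 2747 CPM fasted. Fed 5 was the lowest of all 8 libraries, so the groups overlapped (-0.48 ± 0.31, and -0.30 without fed 1 or -0.31 without fed 4). mtCo2, which receives electrons from cytochrome c, had -0.63 ± 0.48, and mtCo3 had -0.51 ± 0.37. Without fed 4 these were -0.17 and -0.20, and without fasted 4 that of mtCo2 was -0.95.

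Complex V has 2 mitochondrial subunits, both in its membrane part. mtAtp6, which forms the proton path with the ring of c subunits, stood at 3814, 881, 4630.3 and 1073 CPM in fed 1, 3, 4 and 5 and at 764, 914, 2419.9 and 2169 CPM fasted. Fasted 4 and 5 lay between the 2 pairs of fed libraries (-0.73 ± 0.61, -0.48 without fed 1 and -0.30 without fed 4). mtAtp8 had -0.53 ± 0.43, and -0.09 without fed 1.

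The composition of the mitochondrial counts was alike in the groups. mtNd4 made up 16.2 ± 3.14% of them in the fed and 15.7 ± 3.77% in the fasted libraries, mtCo1 15.1 ± 4.80% and 16.1 ± 3.36%, mtNd1 13.1 ± 0.83% and 12.4 ± 1.12%, and mtCo3 11.5 ± 1.66% and 12.4 ± 1.23% (SD, n = 4). Differences between these group means were smaller than the SD of at least 1 group. The mtNd5 share was 5.01%, 1.75%, 2.12% and 2.45% in fed 1, 3, 4 and 5. In fasted 1, 3, 4 and 5 it was 3.59%, 1.58%, 1.91% and 2.02%. It was thus lower in the fasted library of each number, but number 1 was the highest in both groups and the groups overlapped. The mtNd4l share was likewise highest in fed 1 and fasted 1, at 1.77% and 1.31%.

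**Figure D4:**
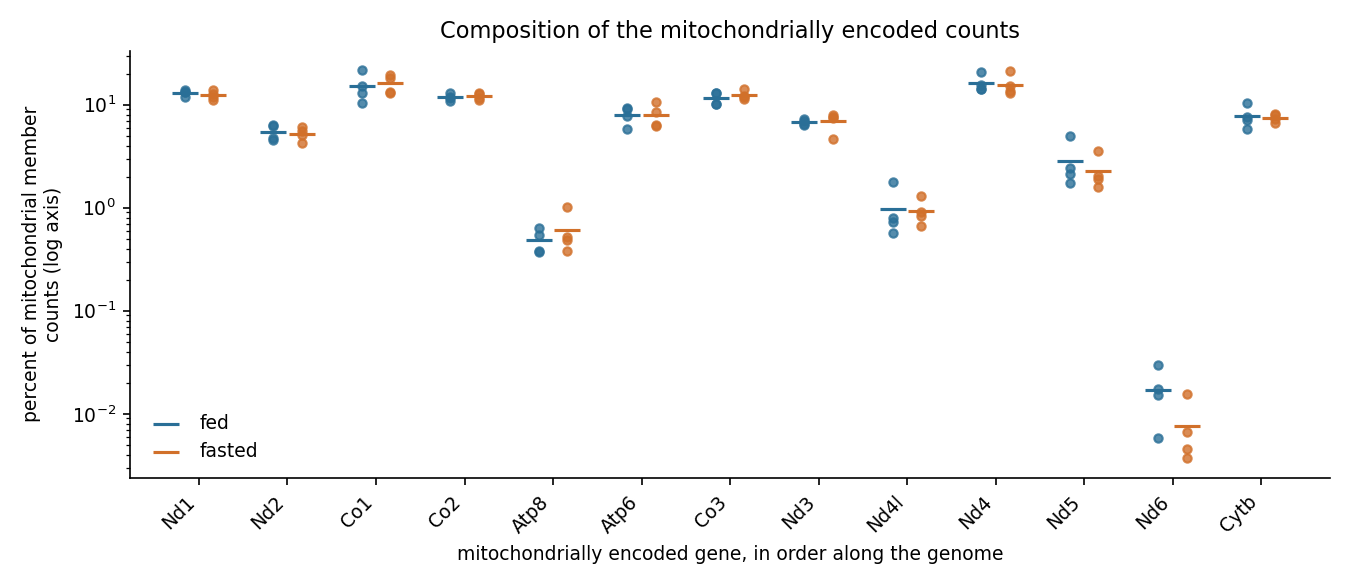
Share of each mitochondrial gene in the counts of all 13 (percent, log axis), in genome order from left to right; points are libraries (blue fed, orange fasted) and short lines are group means. Fed and fasted points overlap for every gene, and mtNd6 lies far below the rest at under 0.03%.

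Nuclear genes of complex I were tested for 35 of 36 members, of which 25 had negative values, with a median of -0.12. The Ndufs and Ndufv genes, which encode the catalytic core and its close partners, had a median of -0.04 (6 of 10 negative), against -0.12 for Ndufa (11 of 13) and -0.15 for Ndufb genes (7 of 10), which encode accessory subunits. The complex I median rested on few libraries: it was -0.0019 without fed 5, -0.04 without fasted 1, -0.07 without fasted 4 and -0.23 without fasted 5. It was positive, at 0.0062, without the acinar-poor fasted 1 and 3, and at 0.04 with a covariate for acinar markers. Ndufs7, the core subunit with the last iron-sulfur cluster before ubiquinone, had the largest positive value of all nuclear members. It stood at 36.6, 31.1, 30.5 and 45.9 CPM in fed 1, 3, 4 and 5 and at 48.0, 49.4, 40.7 and 55.5 CPM fasted. Each fasted library was above the fed library of the same number, but fasted 4 lay below fed 5 (0.43 ± 0.23, unadjusted p = 0.0923 by edgeR).

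In the other direction, Ndufb5, a subunit of the membrane arm, stood at 45.5, 37.5, 38.9 and 67.1 CPM fed and 34.6, 34.9, 29.7 and 44.2 CPM fasted (-0.39 ± 0.26). Fed 5 was the highest, and without it the value was -0.18. The 2 complex I genes with the highest summed CPM, the accessory subunits Ndufa12 and Ndufv3, had -0.12 ± 0.23 and -0.08 ± 0.25. Both were near 0 beside their SE and both were positive without some single library, at 0.0014 without fasted 4 for Ndufa12 and 0.12 without fed 5 for Ndufv3. Ndufs5 had 1 count in the whole table and could not be tested.

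Complex II, succinate dehydrogenase, was tested for 3 of its 4 genes. Sdha, the flavoprotein that oxidises succinate, stood at 75.8, 81.7, 71.6 and 74.0 CPM in fed 1, 3, 4 and 5 and at 64.6, 70.6, 83.1 and 52.3 CPM fasted. Fasted 4 was the highest and fasted 5 the lowest, with the fed libraries between them (-0.16 ± 0.21, with -0.06 without fasted 5 and -0.29 without fasted 4). Sdhb, the iron-sulfur subunit, had -0.25 ± 0.26, with -0.47 without fasted 5, -0.13 without fasted 3 and -0.01 without both fasted 1 and 3. Sdhc, a membrane anchor, had -0.01 ± 0.24, and its sign turned with single libraries. Sdhd, the other anchor, was at 0.685 to 2.81 CPM and failed the filter. The summed level of complex II was 153 ± 8.89 CPM fed and 139 ± 6.43 CPM fasted (SD, n = 4), the most even of the complexes within groups. By library it was 147.2, 148.3, 149.9 and 166.1 CPM in fed 1, 3, 4 and 5. In the fasted libraries of the same numbers it was 141.1, 135.0, 147.8 and 133.8 CPM. On this TMM scale the means differed by more than either SD, and only fasted 4 lay within the fed range.

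Complex III was tested for all 8 nuclear genes, with a median of -0.24 and 5 negative. The median was -0.03 without fed 5, -0.12 without fasted 4, -0.07 without fasted 1 and 3 and -0.08 with the acinar covariate. Uqcrq, a small subunit beside cytochrome b, had the most negative value among the nuclear members. It stood at 323, 289, 623 and 431 CPM in fed 1, 3, 4 and 5 and at 139, 146, 361 and 493 CPM in fasted 1, 3, 4 and 5. Its 2 lowest libraries were fasted 1 and 3, the acinar-poor ones, while fasted 4 and 5 lay within the fed range. The log2 fold change was -0.55 ± 0.43, and 0.04 without fasted 1 and 3, or -0.02 with the acinar covariate. It was -0.96 without fasted 5, -0.30 without fed 4, -0.33 without fasted 1 and -0.34 without fasted 3.

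Other small subunits of complex III went both ways. Uqcr11 stood at 33.9, 39.9, 53.0 and 44.5 CPM fed and at 26.4, 27.7, 26.7 and 46.6 CPM fasted, with 3 fasted libraries below all fed ones (-0.43 ± 0.27, and -0.67 without fasted 5 or -0.23 without fasted 1 and 3). Uqcr10 stood at 68.7, 45.3, 53.8 and 45.2 CPM fed and 53.3, 72.8, 50.0 and 102 CPM fasted (0.39 ± 0.28, and 0.14 without fasted 5). Uqcrh, the hinge protein between cytochromes c1 and c, had 0.29 ± 0.26, with 0.55 without fed 5 and 0.17 to 0.18 without fed 3, fed 4 or fasted 5. GENCODE lists 2 pseudogenes named after Uqcrh, so its counts may include reads of similar sequence.

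Complex IV was tested for 8 of 13 nuclear genes, with a median of -0.06 and 5 negative. The median was 0.05 without fed 5, 0.02 without fasted 4, -0.15 without fed 3, -0.13 without fasted 5 and -0.11 without fasted 1 and 3. Cox8a, a small accessory subunit with the highest summed CPM of the nuclear members, stood at 480.4, 430 and 453 CPM in fed 1, 3 and 4 and at 710 CPM in fed 5. In the fasted libraries it was 686, 599, 359 and 612 CPM. Fed 5 was the highest and fasted 4 the lowest of the 8 (0.12 ± 0.25, and -0.10 without fasted 1 and 3). Single libraries moved the value from 0.0100 without fasted 1 to 0.31 without fed 5. Cox6c and Cox7b, also accessory subunits, had -0.03 ± 0.23 and -0.39 ± 0.27. Cox6c turned positive without fed 5 (0.05) or fasted 4 (0.11), and Cox7b was -0.12 without fasted 1 and 3. The 5 untested genes included Cox6a2, Cox7a1 and Cox8b, isoforms known from heart and skeletal muscle. The others were Cox7b2, with 4 counts, and Cox7c, which is not one of these muscle isoforms. Cox7c had 84 counts, at 0.812 to 3.22 CPM, and why it was so low was not tested. Cox6a2 was at 0 in 7 libraries and at 6.45 CPM, from 35 counts, in fasted 4.

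Complex V was tested for 16 of 17 nuclear genes, with a median of -0.14 and 12 negative. The median was -0.04 without fed 5, -0.04 without fasted 1 and 3 and -0.02 with the acinar covariate. Atp5j, a coupling subunit of the stalk between head and membrane part of the enzyme, stood at 86.5, 83.8, 115 and 111 CPM in fed 1, 3, 4 and 5. In the fasted libraries it was 66.2, 74.5, 69.1 and 78.7 CPM. Every fasted library was below every fed library (log2 fold change -0.46 ± 0.20, edgeR, unadjusted p = 0.0466, Benjamini-Hochberg adjusted p = 1.00). Leaving out each library in turn gave -0.54 to -0.38, and leaving out fasted 1 and 3 gave -0.42. With library totals in place of TMM factors the value was positive, at 0.11, so its sign depends on the scaling.

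Atp5g2, one of 3 genes for the c subunit that forms the rotating ring, had the opposite sign. It stood at 323, 220.0, 199.5 and 253 CPM fed and 321, 316, 239 and 423 CPM fasted (0.38 ± 0.23, and 0.23 without fasted 5). The groups overlapped, with fasted 5 the highest. The other c subunit genes, Atp5g1 and Atp5g3, stood at 221 ± 63.0 and 120.1 ± 13.8 CPM fed and 179 ± 41.3 and 117 ± 20.3 CPM fasted (SD, n = 4). Atp5e, a small subunit of the catalytic head, had -0.10 ± 0.25, with 0.03 without fed 5 and 0.02 without fasted 1. GENCODE also lists pseudogenes named after Atp5c1, Atp5k and Atp5l, whose counts are uncertain to that extent. Pseudogenes under other names were not searched for, so other members may have them too.

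Between complexes, the nuclear counts kept their proportions. Complex I held 34.4 ± 1.22% of nuclear member counts in the fed and 34.3 ± 1.01% in the fasted libraries, complex II 2.16 ± 0.26% and 2.07 ± 0.41%, and complex III 11.8 ± 1.43% and 10.8 ± 2.17%. Complex IV held 19.5 ± 1.00% and 20.4 ± 2.94%, and complex V 32.05 ± 1.57% and 32.5 ± 0.43% (SD, n = 4). Each difference between groups was smaller than the larger of its 2 SDs. The highest complex IV shares, 24.2% and 21.1%, were those of the acinar-poor fasted 1 and 3, which also had the lowest complex III shares, 8.72% and 9.09%. The part of acinar RNA in these shares was not tested.

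Taken complex by complex, the ratio of mitochondrial to nuclear counts set the same libraries apart. The fasted minus fed difference in its log2 mean was -0.52 for complex I, -0.33 for complex III, -0.43 for complex IV and -0.48 for complex V. For complex I the log2 means were 2.25 ± 1.13 fed and 1.74 ± 0.65 fasted, and for complex V -0.09 ± 1.24 and -0.56 ± 0.81 (SD, n = 4). No difference exceeded the SD of either group. In each of the 4 complexes fed 1 and fed 4 had the 2 highest fed ratios and fasted 4 had the highest fasted ratio.

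**Figure D5:**
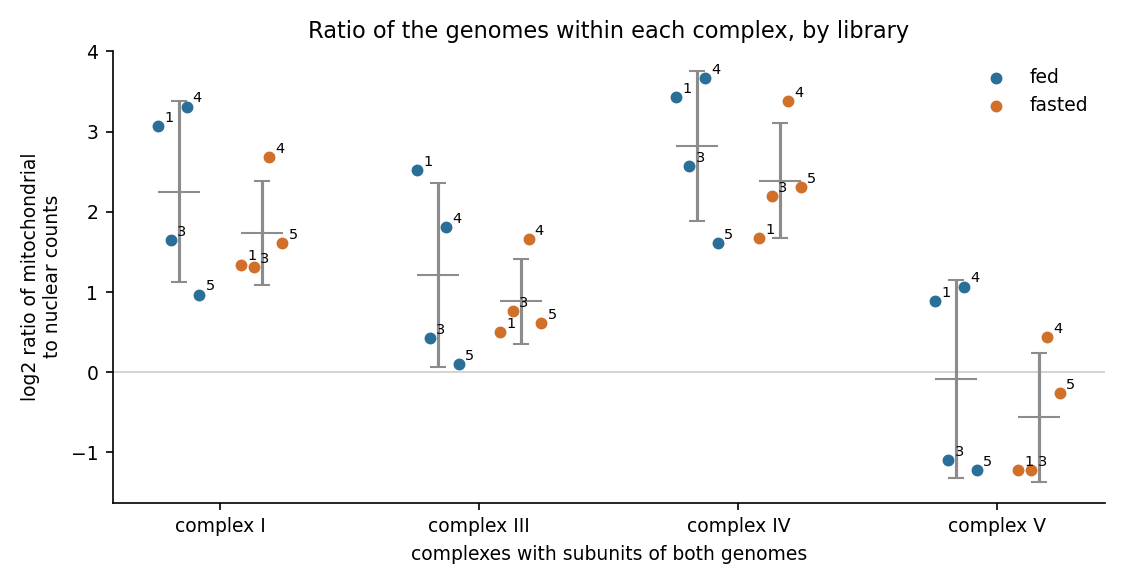
Log2 ratio of mitochondrial to nuclear counts (vertical axis) within each complex that has subunits of both genomes (horizontal axis); points are libraries labelled with their number (blue fed, orange fasted) and grey bars are the mean ± SD of 4 libraries. Fed 1, fed 4 and fasted 4 are the highest of their groups in every complex, and fed and fasted ranges overlap.

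Nuclear respiratory genes are known targets of the transcription factors NRF1 and GABP, an ETS family factor, so their promoters were searched for the letters of both motifs. RefSeq promoters (GRCm38.p6) of 300 bases were found for 67 of the 78 nuclear members. The NRF1 core GCATGCGC, on either strand, was in 10 of the 67 (14.9%), against 6.56% of the 5869 tested genes matched by symbol and 3.05% of all 27025 genes with a promoter. The ETS motif CCGGAAGT was in 5 (7.46%), against 10.5% and 4.31%. The NRF1 letters were in the promoters of Ndufa6, Ndufa8, Ndufa11, Sdhb, Uqcrc1, Uqcr11, Cox6a1, Atp5g2, Atp5k and Atp5l. A match describes the sequence and does not show binding, and GC content was not matched between these sets.

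The promoters of Uqcr11 and Atp5g2 are shown because these members had opposite signs above while sharing the NRF1 letters. Capitals mark the motif matches, and both genes lie on the minus strand, at chr10:80406772-80407071 and chr15:102670998-102671297. Uqcr11 was the one member with both motifs, the ETS letters at base 185 and the NRF1 letters at base 247 of the window. In Atp5g2 the NRF1 letters start at base 209 on one strand and overlap those of the other strand at base 211.
Uqcr11: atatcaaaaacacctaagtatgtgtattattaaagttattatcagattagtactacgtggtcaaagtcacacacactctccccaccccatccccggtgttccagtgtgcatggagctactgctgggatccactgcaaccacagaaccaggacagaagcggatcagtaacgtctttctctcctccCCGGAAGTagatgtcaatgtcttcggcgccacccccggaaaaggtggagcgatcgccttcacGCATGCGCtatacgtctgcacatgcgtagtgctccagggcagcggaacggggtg
Atp5g2: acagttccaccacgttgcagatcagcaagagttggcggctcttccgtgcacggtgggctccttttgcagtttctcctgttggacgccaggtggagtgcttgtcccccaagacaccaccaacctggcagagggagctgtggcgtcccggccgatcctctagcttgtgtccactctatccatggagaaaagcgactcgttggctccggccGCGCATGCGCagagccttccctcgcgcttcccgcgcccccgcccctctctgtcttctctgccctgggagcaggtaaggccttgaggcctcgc

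Genes that serve the chain were examined in 7 further lists, and 0 of their genes passed the adjusted threshold in edgeR. Subunits and carriers outside the symbol rule had a median of -0.02 over 13 tested genes (7 negative). Among them Cox7a2l stood at 173, 122, 139 and 183 CPM in fed 1, 3, 4 and 5. In the fasted libraries it was 235, 241, 170.2 and 261 CPM, above the fed library of the same number each time, with fasted 4 inside the fed range (0.56 ± 0.22, edgeR, unadjusted p = 0.0273). Cycs, the mobile carrier cytochrome c, had -0.40 ± 0.31, and Cox4i1, the main nuclear subunit of complex IV that the symbol rule misses, had 0.19 ± 0.23.

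Assembly factors had a median of 0.05 over 36 tested genes (14 negative). AI462493, the table's symbol for the complex III assembly factor Uqcc3, stood at 12.9, 10.1, 10.9 and 16.1 CPM fed and at 23.2, 21.3, 17.7 and 20.9 CPM fasted. All fasted libraries lay above all fed libraries (0.74 ± 0.28, edgeR, unadjusted p = 0.022), as they did for 2.21% of all genes. For every other tested gene of this list the fed and fasted libraries overlapped.

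Genes for mitochondrial DNA and RNA had a median of -0.04 over 15 tested genes (8 negative). Lrpprc, which binds and stabilises mitochondrial messages, stood at 11.2, 10.6, 13.4 and 6.51 CPM fed and at 3.28, 4.49, 10.9 and 4.55 CPM fasted (-0.84 ± 0.46, edgeR, unadjusted p = 0.0929). Fasted 4 lay with the fed libraries, and without it the value was -1.35, while without fasted 1 and 3 it was -0.43. Its partner Slirp, named after its value was seen, had -0.54 ± 0.31 (-0.35 without fasted 4 and -0.95 without fasted 1 and 3). Among the proteins that start mitochondrial transcription, also named after their values were seen, Tfam, which packages the DNA too, had -0.80 ± 0.54. Tfb2m had -1.01 ± 0.67, and Polrmt, the RNA polymerase, had 0.63 ± 0.49.

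The remaining lists lay close to 0. Regulators of respiratory gene expression had a median of 0.10 over 9 tested genes, with Yy1, a transcription factor, at -0.50 ± 0.25. The coactivator Ppargc1a was at or under 0.685 CPM in every library and was not tested. Citric acid cycle enzymes had a median of 0.03 over 13 genes, with Idh3a, a subunit of isocitrate dehydrogenase, at -0.68 ± 0.41. Mitochondrial ribosomal proteins had a median of -0.07 over 73 genes (44 negative). Among these Mrps12 (-0.56 ± 0.30) and Mrpl19 (-0.74 ± 0.41) had all fasted libraries below all fed libraries, 2 of 73 genes where 1.31% of all genes tested did. For Mrpl19 the closest values were 8.20 CPM in fasted 3 and 8.22 CPM in fed 5. Import genes had a median of -0.05 over 17 genes (12 negative), with the outer membrane receptor Tomm20 at 0.44 ± 0.25.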

How the data were processed

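The authors deposited 1 table of whole-number counts per gene, not normalised, per the file header and its values. The submitters' processing notes name STAR, edgeR and mm10. Their versions, and whether reads or molecular identifiers were counted, are not stated there. The 4 sequencing files hold libraries of both treatments, so groups came from column names, with control columns taken as fed; 2 further columns of per-sample values were not used. The 11 ERCC spike-in rows (20 counts) were left out.

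edgeR 4.0.16 in R 4.3.3 tested the deposited counts: filterByExpr by group (7700 genes), TMM factors, robust quasi-likelihood test, no covariates, two-sided p adjusted by Benjamini-Hochberg over all genes tested, threshold 0.05. The fit was also run on simulated counts drawn independently for each gene. Those counts lacked shifts shared by the genes of a library, and recovery is not reported here. CPM use TMM-scaled library sizes, and spreads use log2 CPM with a prior count of 2. Coordinates are from GENCODE vM21 (91 of 91 members matched by symbol). Column numbers served to set libraries side by side and for the replicate block, while the main test took the libraries as unpaired. Deviations from group means correlated at 0.23, 0.14, 0.50 and 0.13 for equal numbers. Each fed library correlated most with the fasted library of its own number. From the fasted side, fasted 3 correlated more with fed 1 (0.197) and fasted 5 more with fed 4 (0.215). The pairing is therefore uncertain.

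Alternatives were other scalings and filters, DESeq2 1.42.0, limma-voom (limma 3.58.1), leaving out each library, a replicate block and, added after seeing the data, an acinar covariate. Members and lists were chosen with earlier results of these data known. Named were all mitochondrial members, the 2 nuclear members per complex with the highest summed CPM, the smallest p in each direction per complex, members whose groups do not overlap, and the smallest p of each further list. Other names were chosen after their values were seen.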

Additional observations from a re-analysis of the deposited data

Results flagged for a closer look

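In each group of 4 libraries, a library was singled out where its gap to the nearest other exceeded Dixon's critical share of the group's range, which chance gives in about 1 in 20 groups; 8 of 114 groups examined met this. Fed 5 had the highest summed level of complex II among the fed libraries, 166 CPM. Fasted 4 had the highest ratio of mitochondrial to nuclear counts among the fasted libraries for complex I (6.42) and complex III (3.17). It also had the highest level of Lrpprc among them, 10.9 CPM, and was the only library with counts of Cox6a2, at 6.45 CPM. Fasted 5 stood above the other fasted libraries for Ndufv3 (237 CPM) and Uqcr11 (46.6 CPM). Fasted 5 also had the highest ratio of mitochondrial messages to the 2 mitochondrial ribosomal RNAs, 6.81, against 1.60 to 2.23 in the other fasted libraries.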

How the results depend on the processing

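The number of members called was 0 under every alternative, and leaving out single libraries called 0 genes in each case. Library totals without TMM factors called 1 gene, no filter called 1 and DESeq2 called 17, so counts over all genes depend on these settings. The mitochondrial median was negative for 13 of 13 genes in every setting, from -1.01 to -0.33 with single libraries left out, -0.31 without fasted 1 and 3, -0.46 with the acinar covariate (nuclear median -0.043) and -0.36 with library totals. The nuclear median ran from -0.20 to -0.0038 and the log2 ratio of the genomes from -0.86 to -0.15 with single libraries left out. Library totals moved the median of all genes to 0.51, and with it the nuclear median to 0.41 and the medians of complexes I to V to 0.41, 0.34, 0.37, 0.51 and 0.42. Relative to all genes these stayed at or under 0, except complex IV at 0.0006. With library totals, Ndufa12 was 0.53, Ndufv3 0.44, Ndufb5 0.13, Sdha 0.34, Sdhc 0.64, Sdhb 0.13, Uqcr11 0.034, Cox6c 0.59, Cox7b 0.057, Atp5e 0.36, Atp5j 0.11, Yy1 0.031, Mrps12 0.020 and Slirp 0.18. The complex I nuclear median was 0.0062 without fasted 1 and 3 and 0.044 with the acinar covariate, and that of complex IV was 0.052 without fed 5, 0.019 without fasted 4 and 0.017 under limma-voom, which gave complex III -0.11. Under limma-voom Ndufv3 was 0.022, Sdhc 0.11 and Cox6c 0.064, and upper quartile factors gave Sdhc 0.0023. Without fasted 1 and 3, Ndufv3 was 0.060, Uqcrq 0.041, Cox8a -0.10 and Atp5e 0.023, and the acinar covariate gave Ndufv3 0.068, Cox8a -0.046 and Atp5e 0.017. Apart from the scaling, the cause of these sign changes was not tested. Single libraries left out gave ranges that crossed 0 for Ndufa12 (-0.30 to 0.0014), Ndufv3 (-0.24 to 0.12), Sdhc (-0.13 to 0.15), Cox6c (-0.13 to 0.11) and Atp5e (-0.28 to 0.029). With the replicate block the mitochondrial median was -0.53, the nuclear median -0.14, the log2 ratio -0.46 and Sdhc 0.0046, and it changed no call. mtNd6 rests on 4 to 40 counts per library, and Ndufs5, Sdhd and 6 others were too low to test.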

Other observations

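The 2 mitochondrial ribosomal RNAs, which come from the start of the same precursor as most messages, did not follow the messages in every library. Their share of all counts was 1.51%, 0.984%, 1.02% and 0.469% in fed 1, 3, 4 and 5 and 1.57%, 1.58%, 0.876% and 0.170% in fasted 1, 3, 4 and 5. The ratio of message to ribosomal RNA counts was 3.40, 1.93, 2.69 and 2.07 in the fed libraries and 1.60, 1.89, 2.23 and 6.81 in the fasted ones. Fed 1 and fed 4, the libraries with the highest message levels in CPM, also had the 2 highest ratios among the fed. Ribosomal RNA is captured by a poly(A) method only where it carries A tracts or tails, so these ratios describe the libraries.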
